A study of Brassica napus with 24 samples.

Results

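SWEET11 and AT1G19450 are sugar transporters of Arabidopsis, and 3 of the 43603 probes on a Brassica array were followed here as their rapeseed counterparts: A_46_P231464 for SWEET11 (AT3G48740) and A_46_P027466 and A_46_P183085 for AT1G19450. The probes were chosen by the Arabidopsis match that the study's tables give them, and those tables hold probes already selected for a difference between treated and control plants. SWEET11 had been picked out by its difference in leaves and AT1G19450 by its difference in small buds, so those 2 contrasts, and the differences between tissues in level, are given as a description with no test. The tables pair A_46_P371240 and A_46_P024356 with SWEET11 as well, and these 2 probes are shown beside A_46_P231464.

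The samples were tissues of Brassica napus, cultivar Zhongshuang No. 9, grown in the field and sprayed either with monosulfuron ester sodium (MES) at 0.1 μg/mL, about 15 mL per plant, or with a mock solution that lacked MES and held the same carriers, DMF at 50 ppm and the detergent Tween 80 at 5 ppm. MES belongs to the sulfonylurea compounds, which inhibit acetolactate synthase, and it is used as a chemical hybridization agent because sprayed plants become male sterile. Young leaves (Ls), whole small buds (SBs), anthers of middle buds (An-MBs) and anthers of large buds (An-LBs) were collected, which gave MES and mock groups of 3 biological replicates in each of the 4 tissues, 24 one-colour arrays in all. Each replicate was a mixture of material from many plants. Each sample held cells of many types, so a lower signal in a tissue cannot be told apart into less RNA per cell and fewer cells that carry the RNA.

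SWEET proteins are membrane carriers that let sugars pass along their concentration gradient. In Arabidopsis leaves SWEET11, together with its close relative SWEET12, releases sucrose from phloem parenchyma cells so that it can be loaded into the phloem. AT1G19450 encodes a transporter of the ERD6-like group within the major facilitator superfamily, a group of monosaccharide carriers of which characterised members in Arabidopsis lie in the vacuolar membrane. Developing pollen has no photosynthetic supply of its own and depends on sugars delivered through the tissues of the anther.

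Values are log2 signals after quantile normalization over the 24 arrays, so a difference of 1 is a doubling. A signal was counted as measured where the scanning software called it well above background. All 3 probes passed this on every one of the 24 arrays, and none was flagged or saturated on any of them. The median signal of an array lay between 377.5 and 1208. The library labelled MES An-MBs replicate 2 stood apart: its median signal was 383.9 against 1098 and 1162 on the other 2 MES An-MBs arrays, and it correlated with them at r = 0.945 and 0.954, while those 2 correlated at r = 0.989. Differences between MES and mock An-MBs are therefore given with and without it. MES and mock arrays of a tissue lay on different slides, so slide and treatment cannot be told apart. Of 5 pollen transcripts used as markers, 5 were at or below background in MES SBs and 3 in mock SBs. In An-MBs 5 were at or below background in MES plants and 1 in mock plants, with mean levels of 3.61 in MES An-MBs and 12.56 in mock An-MBs, and in An-LBs the means were 7.55 in MES and 18.15 in mock. VGD1, VGDH1, VGDH2 and PPME1 among these markers are listed by the study as lower in MES An-MBs, so the An-MBs means describe that selection. LAP6, a marker of the tapetum, the nutritive cell layer of the anther, read 9.45 ± 3.09 in MES SBs and 15.83 ± 0.56 in mock SBs (adjusted p = 0.0608 by limma). It read 8.17 ± 1.93 in MES An-MBs and 6.74 ± 4.16 in mock An-MBs (adjusted p = 0.736 by limma). That difference was 1.43, and 2.54 without MES An-MBs replicate 2, not called either way. In An-LBs it read 3.98 ± 0.39 in MES and 8.24 ± 0.51 in mock (adjusted p = 0.000264 by limma), where 11.9% of all probes tested were called lower. The 7 leaf probes averaged 14.18 in MES Ls and 14.68 in mock Ls, and 11.91 in MES SBs and 11.63 in mock SBs.

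The SWEET11 signal was highest in leaves and in anthers of large buds. Over the 8 groups the level of A_46_P231464 was highest in mock Ls (11.38 ± 0.07, SD, n = 3), followed by MES An-LBs (11.07 ± 0.30), mock An-LBs (10.90 ± 1.30) and MES Ls (9.68 ± 0.10). After a gap of 2.67 came MES An-MBs (7.01 ± 0.91), MES SBs (6.64 ± 0.22), mock SBs (6.09 ± 0.37) and mock An-MBs (5.48 ± 0.46). Of the 7 pairs of neighbours in that order, the arrays did not overlap only between MES Ls and MES An-MBs and between MES SBs and mock SBs. The distance from the highest to the lowest tissue was 21.6-fold within MES plants, from MES An-LBs to MES SBs, and 59.7-fold within mock plants, from mock Ls to mock An-MBs. A_46_P371240 and A_46_P024356 also had their highest level in mock Ls and their lowest in mock An-MBs.

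**Figure D1:**
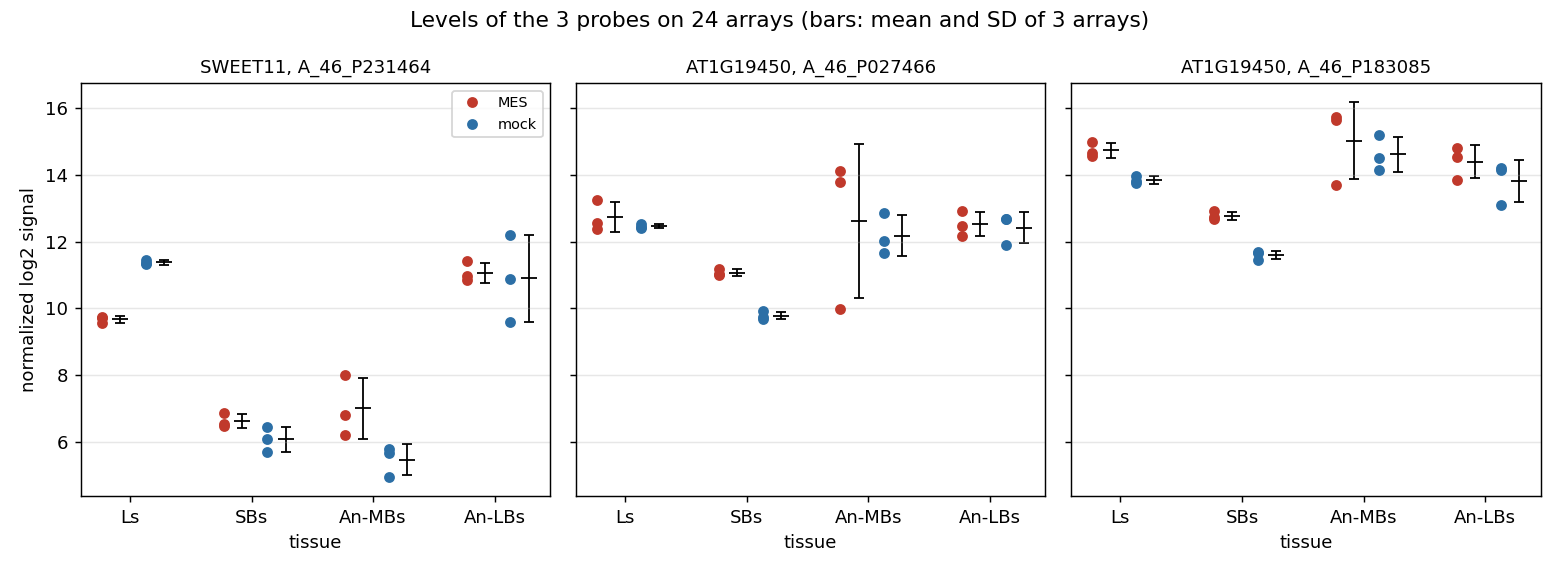
Normalized log2 signal (vertical axis) of the SWEET11 probe and the 2 AT1G19450 probes on each array, by tissue (horizontal axis), with MES in red left of mock in blue; each point is 1 array and the bars give the mean and SD of 3 arrays. The SWEET11 probe is lower on all 3 MES Ls arrays than on the mock Ls arrays and higher on all 3 MES An-MBs arrays than on the mock An-MBs arrays, while both AT1G19450 probes are lowest in mock SBs (9.79 and 11.60) and have 1 MES An-MBs array far below the other 2.

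In leaves, the tissue by which it was chosen, SWEET11 was lower in MES plants. A_46_P231464 read 9.75, 9.71 and 9.56 in MES Ls and 11.46, 11.32 and 11.36 in mock Ls. The groups did not overlap, with all MES arrays below mock as for 19.3% of the probes tested in Ls, and the difference of -1.70 (95% interval -2.08 to -1.32) made the level 3.25-fold lower in MES Ls. The other 2 SWEET11 probes gave close values: A_46_P371240 was 2.99-fold lower in MES Ls (12.59 ± 0.17) than in mock Ls (14.17 ± 0.19), and A_46_P024356 was 2.79-fold lower in MES Ls (13.17 ± 0.19) than in mock Ls (14.65 ± 0.18; SD, n = 3). Of the 32492 probes tested in Ls, 2.3% were called lower by limma (adjusted p under 0.05 and at least 2-fold) and 2.52% higher. These 3 values describe how the probes were selected and are not a test of it.

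In the buds and anthers, on which SWEET11 was not chosen, the means of all 3 SWEET11 probes in MES plants were, to 2 decimals, at or above those in mock plants. In SBs A_46_P231464 read 6.55, 6.89 and 6.48 in MES plants and 6.10, 5.71 and 6.45 in mock plants. Every MES array lay above every mock array, a pattern that 15.5% of the probes tested in SBs showed, but by only 0.55 (95% interval -0.02 to 1.12), and limma with Benjamini-Hochberg adjustment over all probes did not call it (adjusted p = 0.243). With a normexp background correction in place of the scanner's processed signal the difference was 0.30. A_46_P024356 differed by 0.73 with all 3 MES SBs arrays above the mock SBs arrays (adjusted p = 0.107), and A_46_P371240 had the same mean, 9.55, in both (95% interval of the difference -0.53 to 0.53). The 3 probes of the gene therefore did not give 1 answer in SBs.

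The values of SWEET11 in An-MBs lay on the other side of the mock values from those in leaves. A_46_P231464 read 8.01, 6.82 and 6.22 in MES An-MBs and 5.81, 4.95 and 5.68 in mock An-MBs, and the other 2 probes likewise had every MES array above every mock array, as 15.6% of all probes tested in An-MBs did. The difference was 1.53 for A_46_P231464, 2.89-fold (95% interval 0.30 to 2.76), and it was not called by limma (adjusted p = 0.133). A_46_P371240 read 10.50, 9.14 and 8.58 in MES An-MBs and 7.05, 6.72 and 7.15 in mock An-MBs, a difference of 2.43 or 5.41-fold that was called by limma (adjusted p = 0.0413). A_46_P024356 read 11.95, 10.34 and 10.55 in MES An-MBs and 8.85, 8.38 and 8.97 in mock An-MBs, a difference of 2.21 or 4.64-fold that was called too (adjusted p = 0.0434). Of the 34773 probes tested in An-MBs, 4.24% were called higher. The leaf probes, another set with its highest level in Ls, averaged 10.71 in MES An-MBs (10.55 to 10.98 over the arrays) and 10.04 in mock An-MBs (9.68 to 10.44), and 1 of the 6 tested was called higher, RCA, the rubisco activase (3.09-fold, adjusted p = 0.0428, and 1.94 on the log2 scale without MES An-MBs replicate 2; not called when any other array was left out). The pollen markers were lower in the same MES arrays, with 4 of 4 tested called, where 994 of all probes tested were called lower. The 4 are VGD1, VGDH1, VGDH2 and PPME1, which the study itself lists as lower in MES An-MBs. That count therefore describes their selection. The part of the leaf probes or of the pollen markers in the SWEET11 values was not tested.

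These An-MBs calls were close to the threshold. Leaving out MES An-MBs replicate 2 gave 1.63 for A_46_P231464 (adjusted p = 0.107), 2.57 for A_46_P371240 (adjusted p = 0.0365) and 2.52 for A_46_P024356 (adjusted p = 0.0228), all by limma. Leaving out MES An-MBs replicate 1, which had the highest SWEET11 signal, gave 1.03, 1.89 and 1.71 in the same order, and only A_46_P371240 was still called. Without MES An-MBs replicate 3 neither A_46_P371240 (adjusted p = 0.0521) nor A_46_P024356 (adjusted p = 0.104) was called, nor was either without mock An-MBs replicate 1, 2 or 3 (adjusted p from 0.114 to 0.153, by limma). Over all 23 alternatives A_46_P371240 was called in 12 and A_46_P024356 in 11. The alternatives are not independent, and the authors' table and the fit without a fold limit nearly repeat the main fit, so these counts do not weigh the calls. A_46_P231464 was called in 3 of 23, with adjusted p between 0.0338 and 0.282, and its difference was 0.83 with the normexp correction.

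In An-LBs the mock arrays were spread widely. A_46_P231464 read 11.41, 10.84 and 10.96 in MES An-LBs and 10.87, 12.21 and 9.61 in mock An-LBs. The groups overlapped, and the difference of 0.17 had a 95% interval of -1.37 to 1.72 (adjusted p = 0.847 by limma). The spread among the mock arrays was shared by the other 2 probes, which both had mock An-LBs replicate 2 highest (13.49 and 14.67) and mock An-LBs replicate 3 lowest (11.03 and 12.45), while their MES An-LBs arrays all lay between 13.24 and 14.46. Their differences were 1.03 (adjusted p = 0.208) for A_46_P371240 and 0.88 (adjusted p = 0.232) for A_46_P024356.

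These An-LBs values turned on single mock arrays. Without mock An-LBs replicate 2 the differences were 0.83 for A_46_P231464 (adjusted p = 0.172), 1.63 for A_46_P371240 (adjusted p = 0.0263) and 1.45 for A_46_P024356 (adjusted p = 0.02), so limma then called the last 2. Without mock An-LBs replicate 3 the 3 differences were -0.47, 0.40 and 0.34, none called. Without MES An-LBs replicate 2, the 1 array on slide 7 and of scan day 3, they were 0.29, 1.06 and 0.86. The mean of the 5 pollen markers ranged only between 18 and 18.25 over the 3 mock An-LBs arrays; what set the SWEET11 signal apart on those arrays was not tested. The leaf probes averaged 10.92 in MES An-LBs (10.64 to 11.25) and 9.38 in mock An-LBs (9.30 to 9.44). Their median difference was 1.66, against 0.24 for all probes tested in An-LBs. Of 6 tested, 5 were called higher by limma, as were 17.3% of all probes tested in that tissue. The part of the leaf probes in the SWEET11 values was not tested either.

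**Figure D2:**
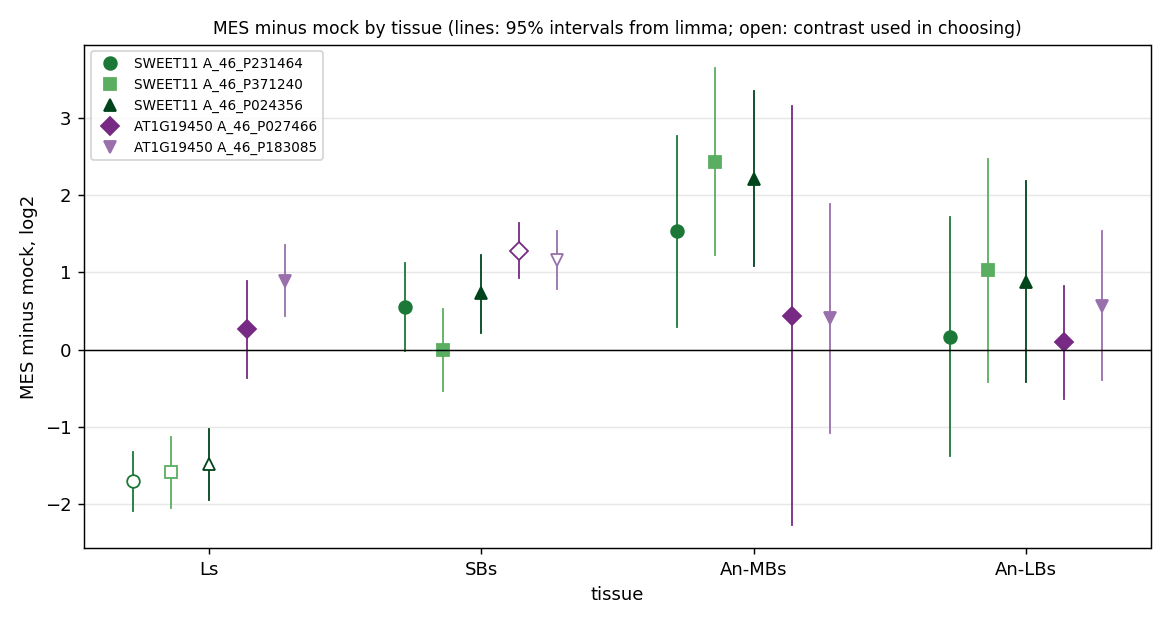
MES minus mock on the log2 scale (vertical axis) in each tissue (horizontal axis) for the 3 SWEET11 probes in green and the 2 AT1G19450 probes in purple; lines are 95% intervals from limma and open symbols mark the contrast by which a gene was chosen. The SWEET11 probes lie between -1.70 and -1.48 in Ls and between 1.53 and 2.43 in An-MBs, and the AT1G19450 probes are above 0 in all 4 tissues with intervals that include 0 in An-MBs and An-LBs and, for A_46_P027466, in Ls.

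Whether the MES effect on SWEET11 differed among SBs, An-MBs and An-LBs was tested with all 24 arrays in 1 limma fit. That fit treated the arrays as independent and gave each probe 1 spread for all tissues. The group SD of A_46_P371240 ran from 0.11 in MES An-LBs to 0.99 in MES An-MBs and 1.23 in mock An-LBs, which limits the test. For A_46_P231464 the effect in An-MBs exceeded that in SBs by 0.98 (95% interval -0.44 to 2.40, adjusted p = 0.497), the effect in An-LBs was below that in An-MBs by a difference of -1.36 (-2.78 to 0.07, adjusted p = 0.193), and An-LBs minus SBs was -0.38 (-1.80 to 1.04, adjusted p = 0.752). Of these 9 contrasts over the 3 probes, 1 passed the threshold, A_46_P371240 in An-MBs against SBs with a difference of 2.44 (1.07 to 3.80, adjusted p = 0.036), in a comparison that passed for 5.01% of all probes. It was called in 6 of 18 alternatives, with adjusted p between 0.0169 and 0.0991. For A_46_P024356 the same contrast was 1.49 (adjusted p = 0.181). It was 1.08 for A_46_P231464, 2.57 for A_46_P371240 and 1.79 for A_46_P024356 without MES An-MBs replicate 2, and again passed for A_46_P371240 alone. Without mock An-LBs replicate 3 the contrast of An-LBs with An-MBs, which 14.2% of all probes passed with all arrays, passed for all 3 probes (-2.0, -2.03 and -1.87, adjusted p = 0.0288, 0.0198 and 0.024). Without mock An-LBs replicate 2, An-LBs minus SBs passed for A_46_P371240 (1.63, adjusted p = 0.0498), in a contrast that 21.2% of all probes passed. The contrasts that involve Ls were set by the choice of the gene and were not tested: for A_46_P231464 they were 2.25 for SBs minus Ls and 3.23 for An-MBs minus Ls.

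AT1G19450 spanned a narrower range over the tissues. A_46_P183085 was highest in MES An-MBs (15.02 ± 1.14) and lowest in MES SBs (12.76 ± 0.12) and mock SBs (11.60 ± 0.13), and A_46_P027466 was likewise lowest in MES SBs (11.07 ± 0.09) and mock SBs (9.79 ± 0.11; SD, n = 3). The other 6 groups lay between 13.81 and 15.02 for A_46_P183085 and between 12.18 and 12.72 for A_46_P027466, and the arrays of every pair of neighbours among those 6 overlapped. The distance between the highest and lowest tissue was 4.79-fold in MES plants and 8.06-fold in mock plants for A_46_P183085, and 3.14-fold in MES plants and 6.32-fold in mock plants for A_46_P027466.

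In small buds, the tissue by which it was chosen, AT1G19450 was higher in MES plants. A_46_P027466 read 11.03, 11.00 and 11.18 in MES SBs and 9.91, 9.70 and 9.75 in mock SBs, a difference of 1.28 or 2.43-fold (95% interval 0.93 to 1.64). A_46_P183085 read 12.72, 12.68 and 12.90 in MES SBs and 11.66, 11.69 and 11.45 in mock SBs, a difference of 1.16 or 2.24-fold (0.79 to 1.53). Both probes had tight groups with no overlap, with all MES arrays above mock as for 15.5% of the probes tested in SBs. Of the 33935 probes tested in SBs, 1.81% were called higher and 2.32% lower, and nothing is read from these 2 values, which follow from the selection.

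In leaves the 2 AT1G19450 probes differed. A_46_P183085 read 14.65, 14.56 and 14.98 in MES Ls and 13.80, 13.97 and 13.74 in mock Ls, with every MES array above every mock array, as 18.2% of all probes tested in Ls had. Its difference of 0.89 or 1.86-fold (95% interval 0.44 to 1.35) stayed under the 2-fold limit and just over the limit on adjusted p (0.0507 by limma), which ranged from 0.0364 to 0.194 over 22 alternatives. A_46_P027466 read 12.56, 12.38 and 13.23 in MES Ls and 12.43, 12.52 and 12.41 in mock Ls, overlapping groups with a difference of 0.27 (-0.36 to 0.89, adjusted p = 0.516). Without MES Ls replicate 3 that difference was 0.01.

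In An-MBs a single library decided the result for AT1G19450. A_46_P027466 read 14.12, 9.97 and 13.77 in MES An-MBs and 12.02, 11.65 and 12.86 in mock An-MBs. MES replicates 1 and 3 lay above all mock arrays, and MES replicate 2, the library that stood apart, lay below all of them, so that the difference of 0.44 had a 95% interval of -2.27 to 3.15 (adjusted p = 0.852 by limma). A_46_P183085 showed the same order, with 15.73, 13.70 and 15.63 in MES An-MBs and 14.50, 14.14 and 15.18 in mock An-MBs, a difference of 0.41 (-1.07 to 1.89, adjusted p = 0.732). Without MES An-MBs replicate 2 the differences were 1.77 for A_46_P027466, which limma then called (adjusted p = 0.0346), and 1.07 for A_46_P183085 (adjusted p = 0.0749). In that setting 3159 of all 34773 probes tested were called higher, against 1474 with all arrays. Leaving out MES An-MBs replicate 1 or 3 instead gave -0.31 or -0.13 for A_46_P027466. On the same library SWEET11 lay between the other 2 MES An-MBs arrays for A_46_P231464 and A_46_P371240. The part of that library's low signal in these values was not tested.

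In An-LBs the MES and mock arrays overlapped on both AT1G19450 probes. A_46_P027466 read 12.18, 12.47 and 12.90 in MES An-LBs and 12.68, 11.90 and 12.68 in mock An-LBs, a difference of 0.10 (95% interval -0.63 to 0.83, adjusted p = 0.811). A_46_P183085 read 13.84, 14.79 and 14.52 in MES An-LBs and 14.15, 13.09 and 14.21 in mock An-LBs, a difference of 0.57 (-0.39 to 1.53, adjusted p = 0.291). Both intervals come from limma, in a tissue where 17.3% of the 35096 probes tested were called higher and 11.9% lower. Mock An-LBs replicate 2, which had the highest SWEET11 signal of its group on all 3 probes, had the lowest AT1G19450 signal of its group on both. Without it the differences were -0.16 for A_46_P027466 and 0.20 for A_46_P183085, neither called.

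None of the 6 contrasts of the MES effect on AT1G19450 among Ls, An-MBs and An-LBs passed the threshold in the limma fit of all arrays (adjusted p between 0.65 and 0.931), with 95% intervals as wide as -2.19 to 1.85. Of all probes, 12.4% passed for An-MBs minus Ls, 28.9% for An-LBs minus Ls and 14.2% for An-LBs minus An-MBs. Without MES An-MBs replicate 2, 2 of them passed, both for A_46_P027466: An-MBs minus Ls at 1.50 (adjusted p = 0.0215) and An-LBs minus An-MBs at -1.67 (adjusted p = 0.0118).

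The signals of probes of 1 gene correlated over the arrays. The 2 AT1G19450 probes correlated at r = 0.902 over the 24 arrays and at r = 0.912 after each group's mean was removed, and A_46_P231464 correlated with A_46_P371240 at 0.956 and 0.939 and with A_46_P024356 at 0.976 and 0.925 in the same 2 ways. The SD of A_46_P027466 was 2.30 in MES An-MBs and 0.06 to 0.62 in the other groups, so its value within groups depends largely on MES An-MBs. A_46_P183085 exceeded A_46_P027466 by 1.71 at the median and by 3.73 at most, on MES An-MBs replicate 2. Between genes the likeness was low: A_46_P231464 correlated with A_46_P027466 at 0.449 over the arrays and at 0.022 within groups, and with A_46_P183085 at 0.242 and -0.213. These points share libraries and the normalization, and the correlations are a description. Which of the several copies of each gene in the rapeseed genome a probe detects was not analysed here.

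**Figure D3:**
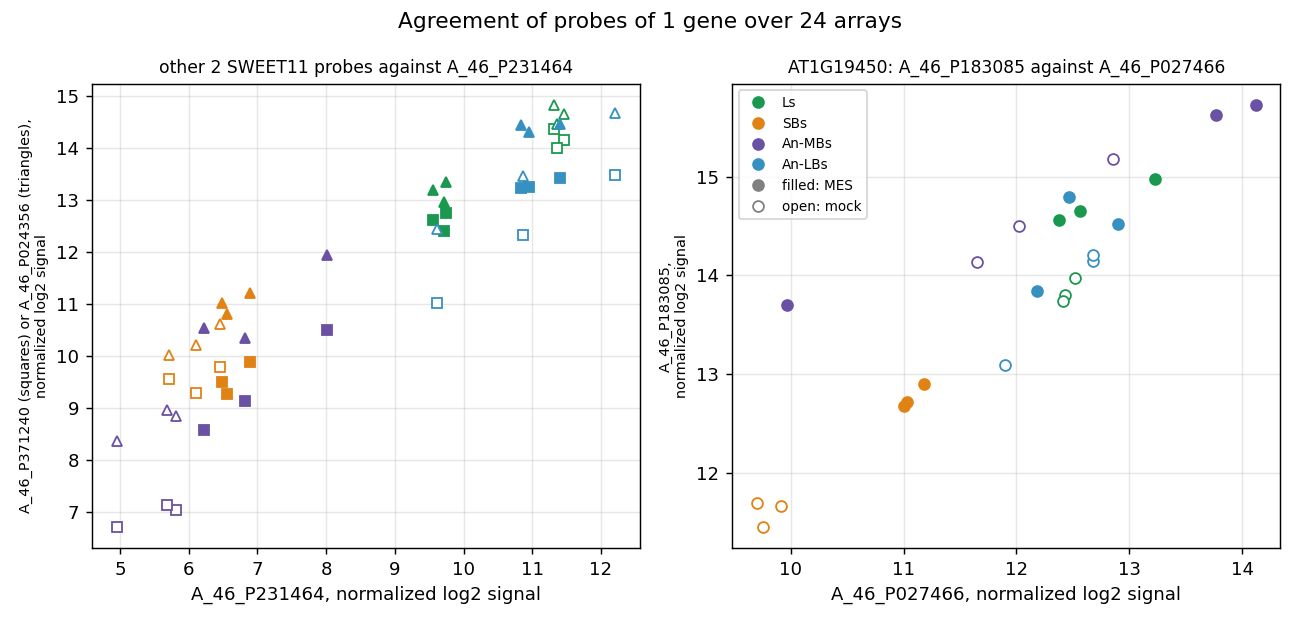
Left: normalized log2 signals of the other 2 SWEET11 probes (vertical axis; A_46_P371240 as squares, A_46_P024356 as triangles) against A_46_P231464 (horizontal axis). Right: the AT1G19450 probe A_46_P183085 (vertical axis) against A_46_P027466 (horizontal axis). Each point is 1 array, coloured by tissue, filled for MES and open for mock; the points rise together (r = 0.956, 0.976 and 0.902 over 24 arrays), with MES An-MBs replicate 2 to the left of the other AT1G19450 points of its group at 9.97 and 13.70.

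The transcripts most like each probe over the 8 group means were taken from the study's list, leaving out probes of the same gene. That list had already been selected for a difference between MES and mock plants, and the 8 means include both treatments. The differences and calls given for these transcripts therefore partly follow from how they were chosen, and nothing is read from them. For the SWEET11 probe A_46_P231464 they were AUX1, an auxin influx carrier (r = 0.954, rank 49 of the 37833 probes compared), CYP81D1, a cytochrome P450 (r = 0.912, rank 241), and ATNTT2, an ATP/ADP transporter of plastids (r = 0.896, rank 321). Its own other probes stood at rank 5 (A_46_P024356, r = 0.979) and rank 43 (A_46_P371240, r = 0.957), and 0.788% of all probes exceeded r = 0.9. In Ls AUX1 and ATNTT2 fell with MES by 1.10 and 1.08 on the log2 scale, and CYP81D1 rose by 3.32 in An-MBs (3.28 without MES An-MBs replicate 2). These 3 were called by limma, but the calls of AUX1 and ATNTT2 were lost without MES Ls replicate 1 or any mock Ls array. Limma called 2.3% of all probes tested lower in Ls, and 4.24% of those tested in An-MBs higher. For AT1G19450 the likeness was weaker. A_46_P027466 had A_46_P183085 at rank 7 (r = 0.939), and its nearest named transcripts were AT2G21185/AT2G21187 of unknown function (r = 0.848), HFR1, a basic helix-loop-helix protein of light signalling (r = 0.802), and AT3G45730, also of unknown function (r = 0.799). HFR1 rose in SBs by 1.63, in An-MBs by 2.78 and in An-LBs by 1.64, all called by limma, while its difference in Ls was -0.06. Without MES An-MBs replicate 2 its An-MBs value was 2.92, also called. Its SBs call was lost without MES SBs replicate 3 or mock SBs replicate 1, and its An-LBs call without any MES An-LBs array or mock An-LBs replicate 1. Among all probes tested, 1.81% were called higher in SBs, against 17.3% for An-LBs. A_46_P183085 had AT2G21185/AT2G21187 (r = 0.810), AT3G45730 (r = 0.793) and the RING/U-box protein AT5G01520 (r = 0.760). Only 33 and 30 probes exceeded r = 0.9 with the 2 AT1G19450 probes.

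Other transporters of sugars and related molecules were taken from the study's own list, whose transcripts had already been selected for a difference between MES and mock in some tissue, so their counts describe that selection. Of 4 such probes, 1 was called lower in Ls and 1 was called higher in SBs, no call was made in An-MBs, and in An-LBs 2 rose and 2 fell. ESL1, a relative of AT1G19450 in the ERD6-like group, read 10.20 ± 1.13 in MES SBs and 6.97 ± 0.17 in mock SBs, a 9.37-fold rise (adjusted p = 0.0297 by limma), and 13.02 ± 0.20 in MES An-LBs against 9.01 ± 0.19 in mock An-LBs, a 16.1-fold rise (adjusted p = 3.26e-05 by limma). The SBs call was lost in some alternatives, among them those that left out MES SBs replicate 3 or any mock SBs array (adjusted p between 0.0706 and 0.125). In An-MBs it had 2.03 on the log2 scale with all 3 MES arrays above mock (adjusted p = 0.051; 1.83 and 0.0546 without MES An-MBs replicate 2, by limma), and in Ls -0.52. INT2, an inositol transporter, fell in Ls by 1.61 (adjusted p = 0.0359 by limma) and was at least 2.80-fold higher in MES An-LBs (6.35 ± 0.18) than in mock An-LBs, where none of its 3 arrays read well above background. The INT2 call in Ls was lost without MES Ls replicate 1 or any mock Ls array, with no filter on dim probes and with scan date as a random block, and its value there was -0.93, not called, with the normexp correction. Of the nucleotide-sugar transporter family, AT5G65000 read well above background on no MES An-LBs array and at least 12.9-fold lower there than in mock An-LBs (8.10 ± 0.25), and AT3G10290 fell 5.56-fold, to 11.96 ± 0.21 in MES An-LBs against 14.44 ± 0.10 in mock An-LBs (SD, n = 3, adjusted p = 0.000173 by limma). The bounds of INT2 and AT5G65000 belong to the main processing. Over 21 alternatives the log2 difference in An-LBs ran from 1.10 to 3.76 for INT2 and from -5.83 to -2.30 for AT5G65000, called in each.

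From the same list came 8 probes of starch and sucrose metabolism, 6 for enzymes and 2 for C/VIF1, an inhibitor of invertase, the enzyme that splits sucrose. In Ls 4 of the 6 enzyme probes were called lower and none higher, where 2.3% of all probes were called lower. These transcripts are in the list because they differed in some tissue, so nothing is read from the counts of calls in any tissue. The 4 were PGM, the phosphoglucomutase of starch synthesis (-1.64), DPE1, a disproportionating enzyme of starch breakdown (-1.39), AGP, the ADP glucose pyrophosphorylase (-1.37), and PHS2, a glucan phosphorylase (-1.15). All 4 Ls calls were lost when MES Ls replicate 1 or any mock Ls array was left out, and so were most calls in that tissue: 1567 probes were called in Ls with all arrays, 15 without MES Ls replicate 1, and 5, 3 and 13 without mock Ls replicate 1, 2 and 3. The median of the 6 enzyme probes was 0.33 in SBs, where all probes tested had 0.05, and no enzyme was called. In An-MBs it was 0.45 against -0.04 for all probes, again with none called. Without MES An-MBs replicate 2 it was 0.85 and 3 of the 6 were called higher by limma, AGP (1.84, adjusted p = 0.0146), PHS2 (1.65, adjusted p = 0.0217) and BAM1, a beta-amylase (1.03, adjusted p = 0.0444). In that setting 3159 of all 34773 probes tested were called higher, against 1474 with all arrays. In An-LBs the median of the enzyme probes was 0.66 against 0.24, with 2 called higher, where 17.3% of all probes tested were called higher.

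Both C/VIF1 probes were called higher in SBs, An-MBs and An-LBs. These probes, like AMY2 and BAM1 below, come from a list already selected for a difference between MES and mock plants. Their calls and adjusted p therefore partly follow from that choice and are given as a description. Of all probes tested, limma called 1.81% higher for SBs, 4.24% for An-MBs and 17.3% for An-LBs. The probe A_46_P145114 read 11.50 ± 0.54 in MES SBs and 8.99 ± 0.17 in mock SBs, 12.66 ± 0.39 in MES An-MBs and 7.82 ± 0.36 in mock An-MBs, and 14.94 ± 0.64 in MES An-LBs and 9.30 ± 0.55 in mock An-LBs. These were rises of 5.70-fold, 28.7-fold and 50.0-fold (adjusted p = 0.0132, 0.000819 and 0.000208 by limma), and the second probe, A_46_P145119, rose 3.60-fold, 10.2-fold and 9.54-fold. Without MES An-MBs replicate 2 the An-MBs rises were 28.9-fold and 11.1-fold, both called. In SBs the call of A_46_P145114 was lost without mock SBs replicate 1 and that of A_46_P145119 without MES SBs replicate 1 or 3 or mock SBs replicate 1 or 2. In Ls neither C/VIF1 probe was called (0.49 and 0.19). In An-LBs AMY2, an alpha-amylase, rose 2.60-fold (adjusted p = 0.0011 by limma) and BAM1 2.04-fold (adjusted p = 0.00324). The BAM1 value was 0.39 on the log2 scale, and not called, under a 75th percentile shift of every array, and 0.98, under the 2-fold limit, without MES An-LBs replicate 1 or mock An-LBs replicate 3.

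**Figure D4:**
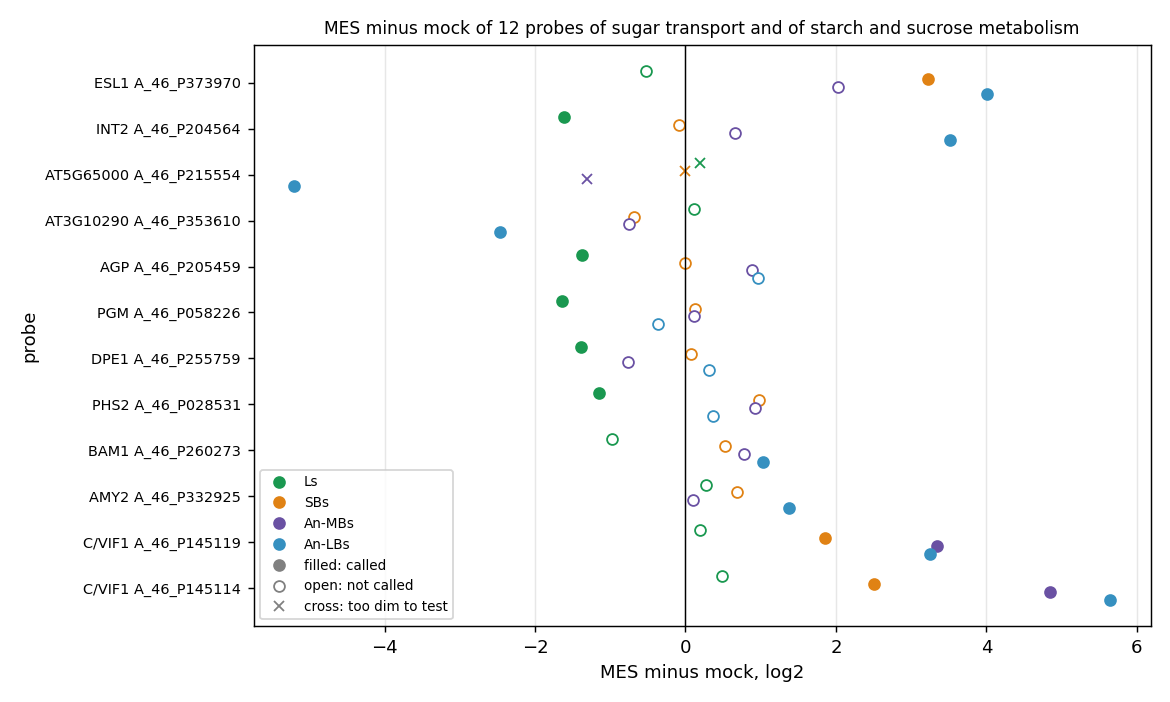
MES minus mock on the log2 scale (horizontal axis) for 4 probes of sugar and related transporters and 8 probes of starch and sucrose metabolism (rows), coloured by tissue; filled points were called by limma, open points were not, and crosses were too dim to test. In Ls 4 starch enzymes are called lower, and C/VIF1 is called higher in SBs, An-MBs and An-LBs. The An-LBs points of INT2 and AT5G65000 have 1 group below background, so that their true differences have only a bound. All rows come from a list selected for a difference between MES and mock plants, so the calls are a description.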

How the data were processed

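RNA of MES-treated and mock-treated plants was hybridised to one-colour Brassica 4 × 44K arrays labelled with Cy3. The authors extracted spot intensities with Agilent Feature Extraction (version 9.1 in the submitters' processing notes, 10.7.3.1 in the file headers) and deposited, per array, the background-subtracted processed signal intensity of each spot. The authors also deposited a log2 table of the same arrays, quantile-normalized, which served as an alternative; its median absolute difference from the values used here was 6.54e-07.

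Spots of a probe were averaged, a probe with several spots counted as well above background where at least as many of them were as were not, control spots were left out, and log2 signals were quantile-normalized over 24 arrays. In each tissue limma 3.58.1 (R 4.3.3) compared 3 MES with 3 mock arrays over the probes that read well above background on 3 or more of the 6 arrays, with weight 0 for outlying spots, and a probe was called where it differed 2-fold or more with a Benjamini-Hochberg adjusted p below 0.05. A fold given as at least a value sets a group below background to the lowest signal well above background on each array. Differences of the MES effect between tissues came from 1 fit of 24 arrays. The fits were checked on simulated data. The number of arrays limits the precision.

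The members and lists were chosen with earlier results of these data known. Named transcripts are the 3 probes, the other SWEET11 probes, every probe of the lists on sugar transport and on starch and sucrose, and for each probe the 3 transcripts of the study's list most like it. Mock replicates lay on slides 1 to 3 and MES replicates on slides 4 to 6, with MES An-LBs replicate 2 on slide 7; mock replicate 1 of every tissue was scanned on 1 day (scan 1), that MES array on another (scan 3), and all others on the second scan day. In Ls, deviations of same-numbered MES and mock arrays correlated at 0.145, 0.252 and 0.429, and in the other tissues at least 1 pair was under 0.1. Neither these values nor the labels show that the numbers pair the arrays. All main fits were unpaired, and blocking on the replicate number was run as an alternative. No probe, promoter or protein sequence was used here.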

Additional observations from a re-analysis of the deposited data

Results flagged for a closer look

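Values of 13 pairs of tissues stood out because the MES effect pointed in opposite directions or differed by the test of the difference itself. For SWEET11 every MES array was below every mock array in Ls and above every mock array in the tissue set against it: A_46_P231464 differed by 2.25 between SBs and Ls and by 3.23 between An-MBs and Ls, A_46_P024356 by 2.21 and 3.69 in the same 2 contrasts, and A_46_P371240 by 4.02 between An-MBs and Ls (log2, effect in the first tissue minus that in Ls). These 5 differences were not tested, because the gene had been chosen on Ls. The effect on A_46_P371240 in An-MBs exceeded that in SBs by 2.44 (adjusted p = 0.036 by limma), a contrast that 5.01% of all probes passed.

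Among the list probes, themselves selected for a difference in some tissue, 4 had all MES arrays below mock in Ls and above mock in at least 1 other tissue. How many of all probes shared that pattern was not counted. For leaves alone, 19.3% of the probes tested had every MES array below mock. Every MES array lay above mock for 15.5% of probes tested in SBs, and for 15.6% with An-MBs. The contrast with leaves passed for 28.9% of all probes for An-LBs, and for 12.4% for An-MBs. The 4 probes were picked because their arrays lay on opposite sides of mock in the 2 tissues compared. The study also lists AGP and PHS2 for their difference in Ls. The differences between tissues of all 4 are therefore a description with no test. INT2 differed by 5.12 between An-LBs and Ls, with its mock An-LBs arrays below background. AGP differed by 2.33 between An-LBs and Ls. PHS2 differed by 2.13 between SBs and Ls and by 1.52 between An-LBs and Ls. BAM1 differed by 1.51, 1.76 and 2.01 between SBs, An-MBs or An-LBs and Ls. Its An-MBs value was 2.01 without MES An-MBs replicate 2.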

How the results depend on the processing

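For SWEET11 A_46_P231464 the description in Ls moved beyond 1 SD to -1.81 with a 75th percentile shift, -1.61 with normexp and -1.79 with quantile normalization of the tissue alone, and the An-MBs difference was called with all 24 arrays in 1 fit (1.53), with slide as a random block (1.53) and with scan date as a random block (1.52). The AT1G19450 A_46_P027466 contrast of An-MBs with Ls was -0.02 with the 75th percentile shift. Blocking on the replicate number changed no call of the 3 members in the contrasts that were tested. In SBs, where AT1G19450 is only described, A_46_P183085 kept its value of 1.16 but no longer met the limits of a call. The block took the An-MBs calls of A_46_P371240 (2.43, adjusted p = 0.0627) and A_46_P024356 (2.21, adjusted p = 0.0547) past the limit by limma. It also took the contrast of An-MBs with SBs of A_46_P371240 (2.44, adjusted p = 0.0553 by limma) past the limit. In no tissue were the numbers shown to pair the arrays. With the block there were 811 calls in SBs, 2013 in Ls, 1664 in An-MBs and 9953 in An-LBs.

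Leaving out 1 array gave, for A_46_P231464, -0.47 to 0.83 in An-LBs, -2.0 to -0.70 for An-LBs minus An-MBs and -1.02 to 0.28 for An-LBs minus SBs. For A_46_P027466 it gave -0.16 to 0.27 in An-LBs, -0.31 to 1.77 in An-MBs, -1.67 to 0.41 for An-LBs minus An-MBs, -0.43 to 0.09 for An-LBs minus Ls and -0.58 to 1.50 for An-MBs minus Ls. For A_46_P183085 it gave -0.51 to 0.51 for An-LBs minus An-MBs and -0.83 to 0.18 for An-MBs minus Ls. A_46_P371240 in SBs, at 0.00, had -0.16 to 0.13 without 1 array, 0.03 with the 75th percentile shift or normexp and 0 with scan date as a random block; A_46_P024356 had -0.38 to 0.72 for An-LBs minus SBs without 1 array and 0 with the 75th percentile shift.

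Counts of called probes moved most. In Ls, 1567 became 798 without a filter on dim probes, 3814 with all arrays in 1 fit, 3782 and 3816 with slide or scan date as a random block, 3314 with scan date as a fixed term, 317 by the methods' t-test at its threshold, 56 with Benjamini-Hochberg, 5 within the second scan day and 3 to 4215 without 1 array. In SBs, 1401 became 915 without a filter, 266 and 30 by the methods' t-test, 185 within the second scan day and 185 to 1200 without 1 array. In An-MBs, 2468 became 4268, 4247 and 4335 in the fits of all arrays, 3714 with scan date as a fixed term, 659 and 991 by the methods' t-test, 781 within the second scan day, 1047 with mock replicates 1 and 2 averaged and 781 to 5370 without 1 array, the highest without MES An-MBs replicate 2. In An-LBs, 10233 became 3567 by the methods' t-test at its threshold, 5969 within the second scan day and 8588 to 10666 without 1 array. The second scan day and scan date as a fixed term were added after the data were seen. The cause was not tested. In An-LBs the median difference over all probes was 0.24, and 0.14 with the 75th percentile shift.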
